A study of Mus musculus with 13 samples.

Results

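Chemokines and their receptors were followed across the day in mouse back skin. The group comprised the 51 genes whose symbol was Ccl, Cxcl, Ccr or Cxcr with a number, or Cx3cl1, Cx3cr1 or Xcl1, among 19938 genes that had a probe set of their own. It held 34 ligands and 17 receptors. The extra symbol Ccr1l1 carries a suffix, and 50 genes matched without it. Probe sets that the annotation assigns to several genes were left out, and genes read only by such probe sets are not analysed here. Among them were Ccl21a, Ccl21b, Ccl21c, Ccl21d, Ccl27a and Ccl27b. Their shared probe sets had mean intensities from 5975 to 9725, where the brightest member analysed had 2363.

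The mice were C57Bl6 males at postnatal day 46 (P46), an age at which the follicles of the back rest in telogen. They were kept in 12 h of light and 12 h of darkness with food at all times. Whole back skin was collected every 4 h from hour 2 to hour 50, and RNA of 3 mice was pooled for each of the 13 arrays. Zeitgeber time (ZT) counts hours from lights on, so lights went off at ZT12. ZT2 had 3 arrays (hours 2, 26 and 50) and ZT6, ZT10, ZT14, ZT18 and ZT22 had 2 each, 1 from each of the first 2 days. ZT2, ZT6 and ZT10 gave 7 light arrays and the other times 6 dark arrays. No mutant, treatment or constant-darkness group is analysed here, so rhythms driven by the clock and by light, feeding or activity cannot be told apart.

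Chemokines are small secreted proteins that guide cells along concentration gradients. They act on G protein-coupled receptors, which signal through inhibitory G proteins and arrestins. One set is made steadily and positions resident cells and lymphocytes, and another is induced by cytokines through NF-kB or interferon-regulated factors and draws neutrophils, monocytes and T cells. In skin, keratinocytes, fibroblasts, endothelium, macrophages and dendritic cells are known sources.

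Promoters are printed for 6 members because the results turn on them. Cxcl14, Cxcl12 and Ccr9 are the members that passed the rhythm test. Cxcl13 had the largest fitted swing of the tested members that did not pass, and Cxcl9 and Cxcl10 were highest together in 1 array. Each stretch is the 250 bases before the gene's start, from RefSeq on GRCm38.p6, written 5′ to 3′ on the gene's own strand. Capitals mark matches to the motifs searched.

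Cxcl14, chr13:56296552-56296801 (minus strand): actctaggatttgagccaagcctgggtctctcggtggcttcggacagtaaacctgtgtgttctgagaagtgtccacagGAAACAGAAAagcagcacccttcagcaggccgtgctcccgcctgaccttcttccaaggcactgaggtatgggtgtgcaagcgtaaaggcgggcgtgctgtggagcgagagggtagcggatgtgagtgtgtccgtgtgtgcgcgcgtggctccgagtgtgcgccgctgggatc
Cxcl12, chr6:117168285-117168534 (plus strand): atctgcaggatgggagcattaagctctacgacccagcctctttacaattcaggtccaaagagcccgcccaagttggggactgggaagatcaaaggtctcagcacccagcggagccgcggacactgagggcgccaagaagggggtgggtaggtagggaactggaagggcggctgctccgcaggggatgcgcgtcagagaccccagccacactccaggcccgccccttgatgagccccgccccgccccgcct
Ccr9, chr9:123766961-123767210 (plus strand): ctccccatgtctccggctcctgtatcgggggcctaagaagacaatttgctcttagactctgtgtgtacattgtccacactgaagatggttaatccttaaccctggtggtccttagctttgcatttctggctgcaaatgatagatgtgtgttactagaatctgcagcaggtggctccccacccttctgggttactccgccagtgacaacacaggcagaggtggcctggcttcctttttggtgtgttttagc
Cxcl13, chr5:95956689-95956938 (plus strand): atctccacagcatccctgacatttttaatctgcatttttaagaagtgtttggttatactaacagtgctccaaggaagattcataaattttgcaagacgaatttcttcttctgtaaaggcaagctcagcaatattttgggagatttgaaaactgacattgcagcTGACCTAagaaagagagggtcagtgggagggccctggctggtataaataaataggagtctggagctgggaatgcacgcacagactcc
Cxcl9, chr5:92328080-92328329 (minus strand): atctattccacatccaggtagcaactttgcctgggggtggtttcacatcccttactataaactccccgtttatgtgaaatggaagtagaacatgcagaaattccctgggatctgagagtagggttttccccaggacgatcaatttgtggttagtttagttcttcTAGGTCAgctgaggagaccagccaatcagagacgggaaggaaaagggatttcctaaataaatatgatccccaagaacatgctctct
Cxcl10, chr5:92348890-92349139 (minus strand): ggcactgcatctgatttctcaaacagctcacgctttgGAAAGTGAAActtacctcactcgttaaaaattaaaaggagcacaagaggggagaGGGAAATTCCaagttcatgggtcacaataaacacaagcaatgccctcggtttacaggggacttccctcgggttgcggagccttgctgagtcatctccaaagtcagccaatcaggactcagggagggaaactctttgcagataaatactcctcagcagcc

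Both strands were searched for 5 motifs. They were the clock E-box CACGTG, the D-box TTANGTAA bound by PAR bZIP factors, the ROR element TAGGTCA bound by ROR and REV-ERB, the NF-kB motif, GGGA and TTCC with any 2 bases between, and the interferon-stimulated response element (ISRE), TTTC and TTTC with any 2 bases between. No matches in the promoters shown overlap. Cxcl14 held an ISRE match, GAAACAGAAA, 172 bases before its start. Cxcl10 held an NF-kB match, GGGAAATTCC, at 159 bases and an ISRE match, GAAAGTGAAA, at 213 bases. Cxcl13 and Cxcl9 each held a ROR element, at 87 and 86 bases. Cxcl12 and Ccr9 held none of these letters in this window. Promoters were found for 37 of the 51 members, with 39 starts. The ROR element stood in 12.8% of these member promoters and in 2.23% of all 32851 promoters. The NF-kB motif stood in 15.4% of them (Ccl1, Ccr3, Cxcl1, Cxcl10, Cxcl2 and Cxcl3) against 1.21% of all. For the ISRE the shares were 7.69% and 2.98%, for the E-box 2.56% and 6.02%, and for the D-box 2.56% and 2.06%. These matches describe letters only, and binding was not measured.

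Brightness set how many members could be followed. Of the 51 members, 37 passed the filter that left out the dimmest 25% of genes by mean, namely 27 ligands and 10 receptors. The other 14 were Ccl12, Ccl26, Ccl28, Ccl3, Ccr1, Ccr1l1, Ccr3, Ccr6, Ccr8, Cxcl11, Cxcl15, Cxcl2, Cxcr2 and Cxcr5, with mean intensities from 61.5 to 187. As a guide to the dim end, 1190 olfactory and vomeronasal receptor genes had a median of 94.6 and a 95th percentile of 285. Of the 37 members followed, 31 had a mean above that percentile, and Ccl1, Ccl17, Cxcl5, Cxcr1, Cxcr3 and Cxcr6 did not. None of the 14 dim members did. Brightness also depends on the probe's sequence, so no order of RNA amount between genes is read from it.

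**Figure D1:**
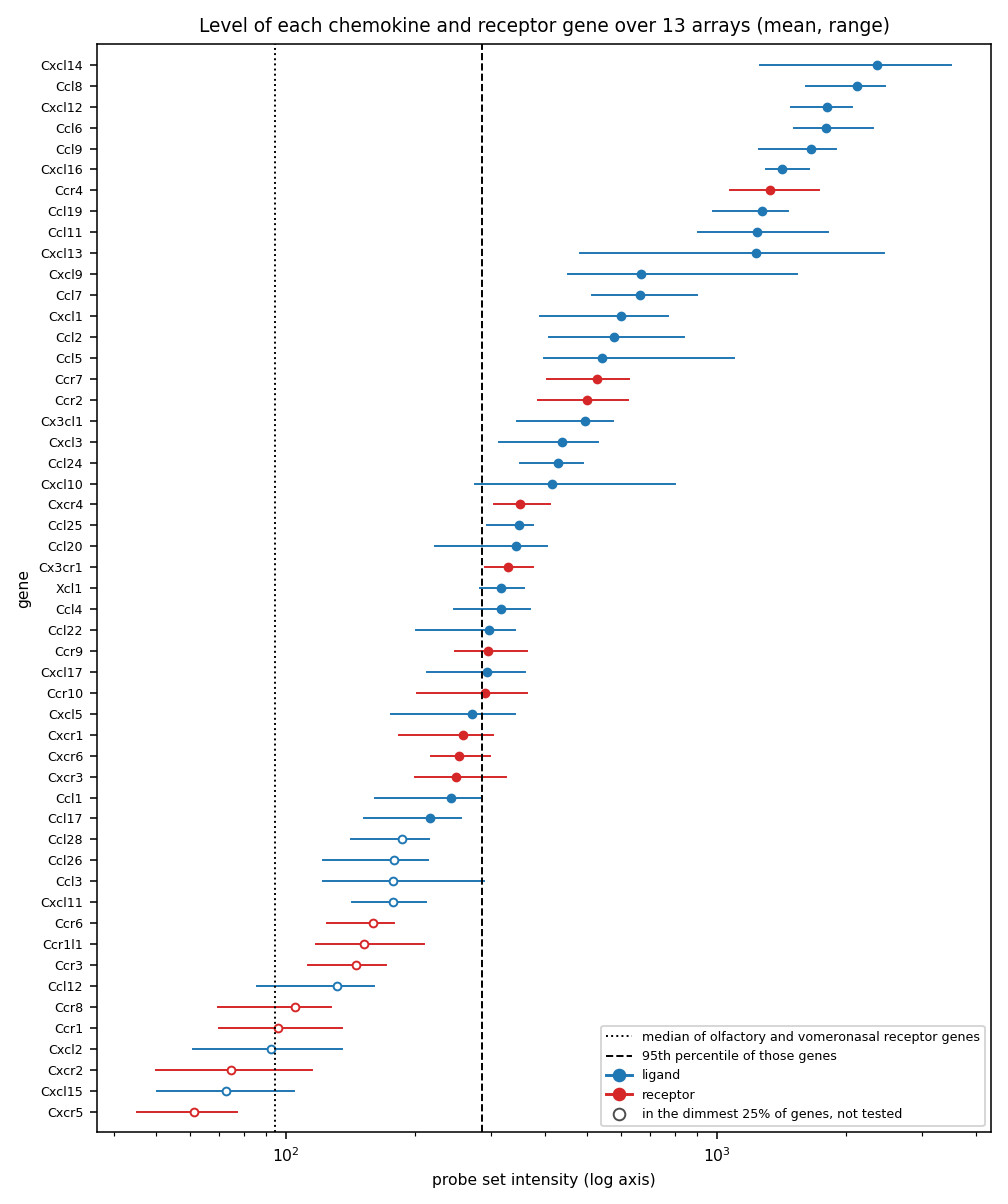
Mean intensity (log axis) of the 51 members over the 13 arrays, with lines from the lowest to the highest array. The 14 members left out of the tests have means of at most 187, and 31 of the 37 others lie above the 95th percentile of the receptor genes used as a guide, 285.

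Markers of skin were present, and so were genes of other tissues. All 6 keratinocyte and all 6 fibroblast markers were among the brighter genes, at or above the 93.4th and the 85.7th percentile. Markers of T cells, macrophages and dendritic cells were also measured, whereas 5 of 9 neutrophil markers were among the dimmest genes. Array medians over all probe sets lay between 353.8 and 392.8, and correlations between pairs of arrays between 0.891 and 0.992. The summed intensity of 9 liver markers ranged from 14532 in the second ZT22 array to 84173 in the first ZT10 array, and was 77419 at hour 38 and 71166 at hour 2. None of the 9 was called in the rhythm test described below, where their median peak-to-trough difference was 0.87 in log2, and their part in the members' values was not tested. The first ZT2 array (hour 2) stood apart. It had the lowest summed intensity for 9 of 15 marker lists, among them T cell, macrophage and fibroblast, and an exocrine pancreas sum of 5715 where the others reached at most 2415. It was also the lowest array for 21 of the 37 members, against 26.8% of all genes. The second ZT22 array (hour 46) had a summed intensity of 204782 for 44 hair keratin-associated protein genes, against 17276 to 30196 elsewhere.

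Over the 13 arrays, the standard deviation of log2 intensity had a median of 0.19 among the 37 members and 0.15 among all 14954 genes tested. The highest array exceeded the lowest by at least 2-fold for 7 members, and 7.32% of all genes did so.

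A 24 h rhythm was the main comparison. A cosine of 24 h was fitted to log2 values of all 13 arrays with limma, and the peak-to-trough difference and the hour of the peak were read from it. Cxcl14 and Cxcl12, ligands made in resting skin, and Ccr9, a receptor for Ccl25, passed the test with Benjamini-Hochberg adjusted p under 0.05. That is 3 of 37 members, 8.11%, where 318 of 14954 genes, 2.13%, were called. At an unadjusted p under 0.05 there were 11 members, against 18.6% of all genes. The median peak-to-trough difference was 0.29 in log2 over members and 0.19 over all genes. Without the hour 2 and hour 46 arrays, 3 members (Ccr9, Cxcl13 and Cxcl14) and 2.88% of all genes were called. In whole skin, fewer cells of a type and less RNA per cell cannot be told apart.

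Cxcl14 is a ligand with strong steady expression in epithelia, known to draw monocyte-lineage cells and dendritic cell precursors. Its intensities were 2179, 3129 and 3186 at ZT2, 1809 and 2201 at ZT6, 1259.7 and 1524 at ZT10, 1442 and 1453 at ZT14, 2820.45 and 3043 at ZT18, and 3491 and 3177 at ZT22. The 4 arrays of ZT10 and ZT14, grouped after their values were seen, were the lowest of all 13. The fitted peak-to-trough difference was 1.34 ± 0.15 (SE) in log2, 2.53-fold, with a peak at 22.6 ± 0.43 h and an adjusted p of 0.00128 (limma). It stood at rank 28 of 14954 genes by p and at rank 50 by size of swing. Each day's 6 arrays fitted alone gave peaks at 21.9 h and 23.1 h and differences of 1.38 and 1.28. It was called after leaving out each array in turn, with differences from 1.28 to 1.51 over all alternatives, but not with either day alone (lowest and highest adjusted p over alternatives 0.000233 and 0.255). Keratinocyte markers, 0 of 6 called, and fibroblast markers, 0 of 6 called, had median peak-to-trough differences of 0.13 and 0.09.

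Cxcl12, the ligand of Cxcr4 that retains stem and immune cells in tissues and is known from fibroblasts and endothelium, ran the other way. Its intensities were 1617, 1735 and 1705 at ZT2, 1695 and 1872 at ZT6, 2040.2 and 2003 at ZT10, 2067 and 2013 at ZT14, 1699.8 and 1881 at ZT18, and 1486 and 1665 at ZT22. The 4 arrays of ZT10 and ZT14, lowest for Cxcl14, were the highest for Cxcl12. The difference was 0.35 ± 0.07 in log2, 1.28-fold, with a peak at 11.7 ± 0.77 h and an adjusted p of 0.0407 (limma). Its call held in only 8 of 26 alternatives, and in only 1 of the 13 that leave out an array. It was lost without the hour 2 and hour 46 arrays, at an adjusted p of 0.0699 (limma), and with the dim end of the arrays as a covariate, at 0.118 (limma). The peaks of both days, 11.7 h and 11.8 h, lay close together.

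Ccr9, a receptor that guides gut-homing T cells and thymocytes, peaked in the light hours. Its intensities were 339, 270.2 and 287 at ZT2, 347 and 364 at ZT6, 333 and 329 at ZT10, 263 and 283 at ZT14, 256 and 249.2 at ZT18, and 247 and 263 at ZT22. Every dark array was at most 283, and 6 of the 7 light arrays were above that. The difference was 0.49 ± 0.08 in log2, 1.40-fold, with a peak at 7.14 ± 0.59 h and an adjusted p of 0.0165 (limma). It was called in 12 of 13 fits that leave out an array and lost without the second ZT6 array, at 0.0582 (limma), and with either day alone. Ccr9's mean of 295 lay close to the 95th percentile of the receptor genes used as a guide, 285. Of 8 T cell markers, 0 were called and Cd8a alone had an unadjusted p under 0.05, and their part in the Ccr9 difference was not tested. Its ligand Ccl25 had a fitted swing of 0.04 ± 0.08.

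**Figure D2:**
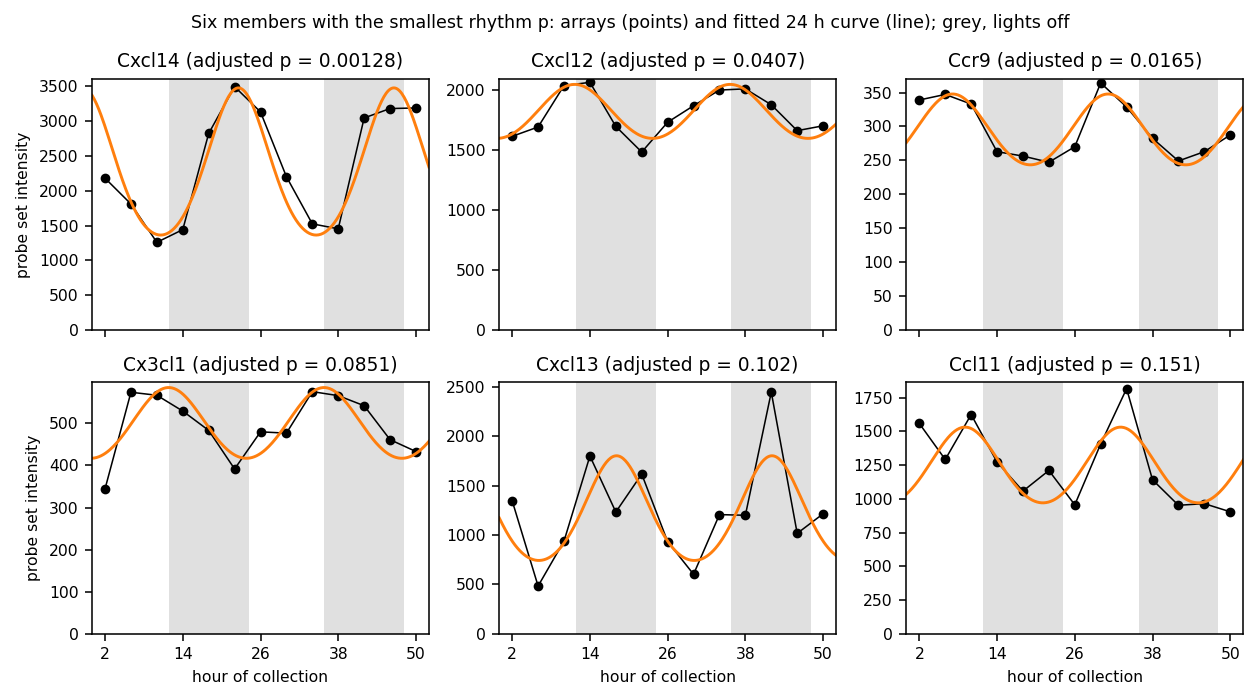
Intensity against hour of collection for 6 members, 1 point an array, with the fitted 24 h curve and the dark hours shaded. Cxcl14 is lowest at ZT10 and ZT14, where Cxcl12 is highest, and Ccr9 is highest at ZT6.

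The members next in order did not pass the adjusted test. Cxcl13, which organises B cell follicles through Cxcr5, had a fitted difference close to that of Cxcl14, 1.26 ± 0.31, with an adjusted p of 0.102 (limma). Its intensities were 1346, 933 and 1214 at ZT2, 483 and 602 at ZT6, 938 and 1206 at ZT10, 1798 and 1199 at ZT14, 1232 and 2445 at ZT18, and 1616 and 1016 at ZT22. Both ZT6 arrays were the lowest 2 of 13, but both ZT18 arrays and both ZT22 arrays lay far apart. It was called only without the hour 2 and hour 46 arrays, at 0.0425 (limma). Its receptor Cxcr5 was among the dim members, and of 4 B cell markers, 2 were too dim to test.

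Cx3cl1, the membrane-bound ligand of Cx3cr1, had intensities of 345, 480 and 433 at ZT2, 574 and 477 at ZT6, 567 and 576 at ZT10, 529 and 566 at ZT14, 483 and 542 at ZT18, and 392 and 461 at ZT22. Arrays of ZT10 and ZT14 were high, and the first ZT6 array, at 574, and the second ZT18 array, at 542, lay among them. The difference was 0.47 ± 0.11, with a peak at 11.8 h and an adjusted p of 0.0851 (limma). Ccl11, the eosinophil-attracting eotaxin, had intensities of 1558, 956 and 904 at ZT2, 1291 and 1406 at ZT6, 1624 and 1816 at ZT10, 1273 and 1141 at ZT14, 1057 and 952 at ZT18, and 1210.1 and 964 at ZT22. The ZT10 arrays were the highest 2, and 1 ZT2 array, at 1558, came next. The difference was 0.65 ± 0.18, with an adjusted p of 0.151 (limma).

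Further ligands did not pass the adjusted test either. Cxcl10 had intensities of 311, 424 and 346 at ZT2, 392 and 499.7 at ZT6, 451 and 441 at ZT10, 401 and 801 at ZT14, 373 and 389 at ZT18, and 275 and 308 at ZT22. Both ZT22 arrays were the lowest 2 of 13, and 1 ZT14 array was far above the rest. Its difference was 0.70 ± 0.20, with a peak at 11.3 h and an adjusted p of 0.174 (limma). Ccl19, a ligand of Ccr7 that leads dendritic cells and T cells to lymph nodes, had intensities of 1059.5, 1293 and 1118 at ZT2, 981 and 1268 at ZT6, 1348 and 1324 at ZT10, 1315 and 1315 at ZT14, 1359 and 1465 at ZT18, and 1265 and 1427 at ZT22. Its lowest arrays were hours 6 and 2 and its highest hours 42 and 46, so times of day overlapped. The difference was 0.31 ± 0.10, with an adjusted p of 0.221 (limma). Cxcl16, a membrane-bound ligand of Cxcr6, had intensities of 1330.5, 1555 and 1372 at ZT2, 1536 and 1639.5 at ZT6, 1429 and 1448 at ZT10, 1344 and 1527 at ZT14, 1318 and 1343 at ZT18, and 1301 and 1335 at ZT22. Both ZT6 arrays were among the highest 3, and the difference was 0.22 ± 0.08, with an adjusted p of 0.265 (limma).

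Ligands known from macrophages were not called. Ccl8, a monocyte and T cell attractant, had intensities of 1609.5, 2448 and 2140.0 at ZT2, 2171 and 2335 at ZT6, 2429 and 2456 at ZT10, 1995 and 2122 at ZT14, 1763 and 1842 at ZT18, and 2047 and 2139 at ZT22. Both ZT10 arrays were among its highest 3, and the lowest was the first ZT2 array. Ccl6 had intensities of 1513, 1645 and 2079 at ZT2, 1514 and 1760.0 at ZT6, 1613 and 2301 at ZT10, 2053 and 1742 at ZT14, 1697 and 2021 at ZT18, and 1695 and 1738 at ZT22. Its replicates at ZT10 lay far apart. Ccl9 had intensities of 1729.6, 1703 and 1890.4 at ZT2, 1255 and 1684 at ZT6, 1872 and 1858 at ZT10, 1493 and 1698 at ZT14, 1468 and 1728 at ZT18, and 1791 and 1381 at ZT22. Its lowest array was the first ZT6 array, whose partner on the second day was not low. Their fitted differences were 0.31 ± 0.13, 0.19 ± 0.13 and 0.07 ± 0.15, with adjusted p-values of 0.314, 0.593 and 0.942 (limma). With the dim end of the arrays as a covariate, the difference of Ccl6 was 0.03. The monocyte attractants Ccl2 and Ccl7 had differences of 0.16 ± 0.19 and 0.31 ± 0.13, and the neutrophil attractants Cxcl1, Cxcl3 and Cxcl5 of 0.44 ± 0.16, 0.33 ± 0.15 and 0.23 ± 0.17, none of them called.

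Receptors other than Ccr9 did not pass the test. Cxcr1, which neutrophils use to sense Cxcl ligands, had intensities of 184, 212 and 261 at ZT2, 227 and 262 at ZT6, 256 and 297 at ZT10, 277 and 283 at ZT14, 269 and 302 at ZT18, and 222 and 303 at ZT22. Its 3 highest arrays were hours 46, 42 and 34, all of the second day. Cxcr3, the receptor of Cxcl9 and Cxcl10 on T cells, had intensities of 199.7, 213 and 234 at ZT2, 243 and 258 at ZT6, 252 and 242 at ZT10, 248 and 263 at ZT14, 248 and 324 at ZT18, and 242 and 272 at ZT22. Its lowest arrays were the first and second ZT2 arrays and its highest the second ZT18 array. Fitted differences were 0.36 ± 0.12 and 0.26 ± 0.10, with adjusted p-values of 0.242 and 0.308 (limma). With the dim end of the arrays as a covariate they were 0.15 and 0.16, and both genes' means lay within the range of the genes used as a guide to the dim end. The skin-homing receptors of T cells, Ccr4 and Ccr10, had differences of 0.32 ± 0.12 and 0.28 ± 0.15, and Ccr7, on migrating dendritic cells, of 0.29 ± 0.11. Ccr2, Cxcr4, Cxcr6 and Cx3cr1 lay between 0.07 and 0.17, with adjusted p-values from 0.617 to 0.870 (limma).

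The remaining ligands with unadjusted p under 0.05 were Cxcl10, Ccl19, Cxcl16 and Cxcl1, and among receptors Cxcr1, whose mean lay within the range of the genes used as a guide to the dim end. Their adjusted p-values ran from 0.174 for Cxcl10 to 0.267 for Cxcl1 (limma). By role, 2 of 27 ligands and 1 of 10 receptors were called, and their median differences were 0.31 and 0.27. Fitted peaks of the 37 members numbered 1, 7, 9, 10, 6 and 4 in successive 4 h bins from ZT0. These are 2.70%, 18.9%, 24.3%, 27.0%, 16.2% and 10.8% of members. Of all genes, 21.8%, 18.1%, 19.8%, 20.1%, 7.74% and 12.4% peaked in the same bins. The hour 2 array, at ZT2, was the lowest for 21 members, and its part in these peaks was not tested. Most members' peaks are poorly placed, since a peak hour is uncertain for a small swing. Between the 2 days, the peak moved by a median of 4.26 h among members and 4.87 h among all genes. Of members, 17 of 37, 45.9%, moved by at most 4 h, against 39.7% of all genes.

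**Figure D3:**
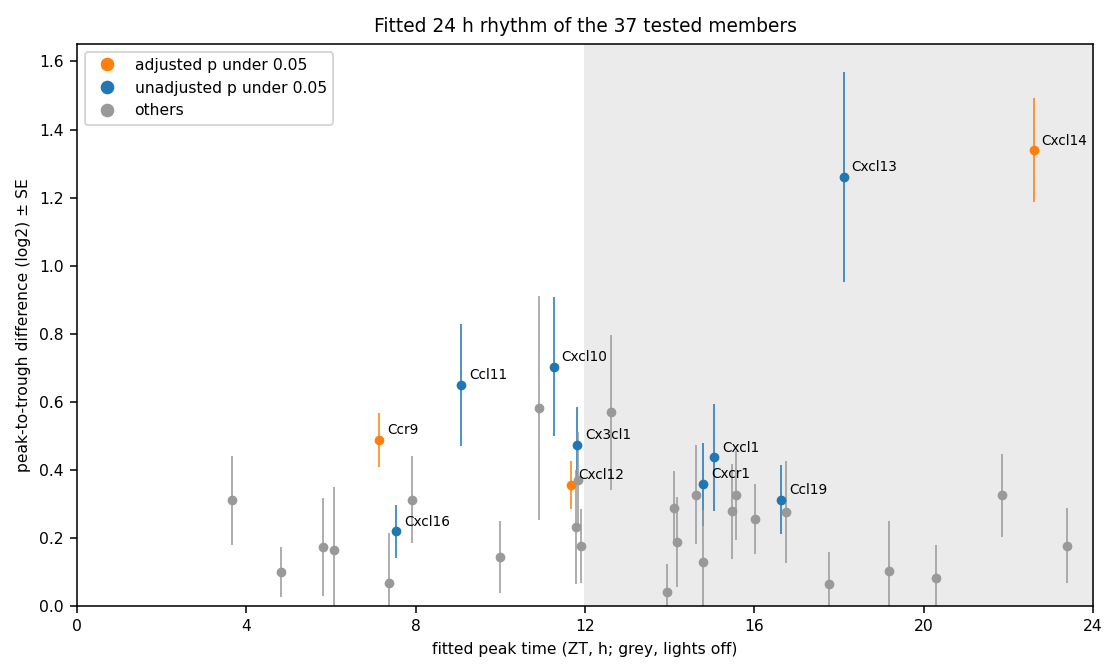
Fitted peak hour and peak-to-trough difference (log2, ± SE) of the 37 members. Cxcl14 and Cxcl13 have the largest swings, 1.34 and 1.26, and Cxcl14, Cxcl12 and Ccr9 passed the adjusted test.

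Any difference among the 6 times of day, with no curve assumed, was called for 44 genes, 0.294%, and for 1 member, Cxcl14, at an adjusted p of 0.0249 (limma). Its mean was 2.39-fold higher at ZT22 than at ZT10. This call was lost in 9 of the 13 fits that leave out an array. It was kept without the first ZT2, first ZT22, second ZT6 or second ZT10 array. At an unadjusted p under 0.05 there were 6 members, against 8.99% of all genes. Without the hour 2 and hour 46 arrays, ZT22 has no replicate array in this test, so the calls of that fit are not given.

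No member differed between dark and light at an adjusted p under 0.05 (limma), where 3 of 14954 genes, 0.0201%, were called (2 higher, 0.0134%, and 1 lower, 0.00669%). At an unadjusted p under 0.05 there were 5 members, against 8.28% of all genes. They were 3 higher in the dark (Cxcl13, Ccl19 and Cxcr3; 2.03% of all genes) and 2 lower (Ccr9 and Ccl7; 6.25% of all genes). Ccr9 differed by -0.30 ± 0.07, with an adjusted p of 0.288, and Cxcl13 by 0.70 ± 0.25, with an adjusted p of 0.513 (both limma). Dark and light arrays overlapped for all 37 members, and they stood fully apart for 0.361% of all genes. Over members, 22 of 37 differences were above 0, against 40.2% of all genes, with medians of 0.04 and -0.02. The members' median turned below 0 without the first ZT2 array. In that fit 17 of 37 members were above 0, against 39.1% of all genes, both with medians of -0.02. Without the hour 2 and hour 46 arrays 16 members were, against 40.7% of all genes, again both with medians of -0.02. With the dim end of the arrays as a covariate 14 members were, against 40.3% of all genes, with medians of -0.03 and -0.02. With the arrays shifted to the same median or quantile-normalized, 24 and 23 members were above 0, against 49.5% and 50.2% of all genes.

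Days were compared by pairing the 12 arrays of hours 2 to 46 by time of day. The second day was higher for 33 of 37 members, 89.2%, where 53% of all genes were above 0, and the median difference was 0.12 over members and 0.01 over all genes. None passed the adjusted test, and neither did any gene (0% called, 0% higher and 0% lower, smallest adjusted p 0.603, limma). At an unadjusted p under 0.05 were 3 members, all higher, against 6.53% of all genes (3.06% higher, 3.46% lower). They were Cxcr1 (0.20 ± 0.06), Cxcl10 (0.32 ± 0.12) and Ccl5 (0.37 ± 0.14), each with an adjusted p of 0.603 (limma). Ccl8, Cxcl16 and Cxcr1 were higher on the second day in 6 of 6 pairs, as were 3.02% of all genes.

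The size of the day difference over members rests partly on the first ZT2 array. Without it, 33 of 37 members were still above 0, against 47.4% of all genes, and the members' median fell from 0.12 to 0.08. The second day was higher for 31 of 37 members at ZT2, 24 at ZT6, 19 at ZT10, 18 at ZT14, 28 at ZT18 and 29 at ZT22. Of all genes, 57.7%, 51.5%, 61.3%, 44.8%, 48.0% and 45.5% were higher at these times. Without the hour 2 and hour 46 arrays, the second day was higher for 26 of 37 members, with a median of 0.05, and for 48.2% of all genes. Over all 15 marker lists, 50 of 84 genes, 59.5%, were above 0 in the second day's difference. They were 9 of 9 macrophage, 7 of 8 T cell, 7 of 8 Langerhans and dendritic cell, and 4 of 4 neutrophil markers. Mast cell markers gave 5 of 6, B cell 2 of 2, fibroblast 4 of 6 and lymphatic endothelium 3 of 4. Lower shares came from keratinocyte, 2 of 6, endothelial, 2 of 6, and skeletal muscle markers, 2 of 5. Exocrine pancreas gave 2 of 5, adipocyte 1 of 5, liver 0 of 9 and red blood cell 0 of 1. The macrophage markers' summed intensity was 17841 in the first ZT2 array and 22444 to 26993 elsewhere. Their part in the day difference was not tested.

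**Figure D4:**
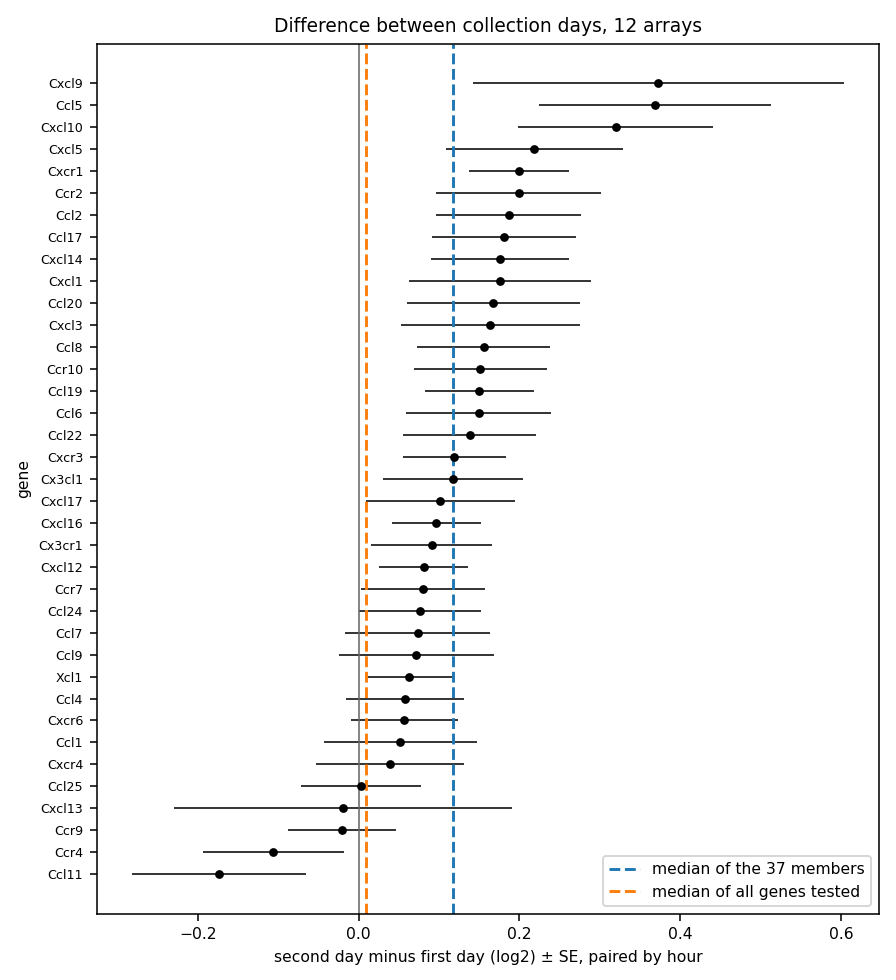
Second day minus first day in log2 (± SE) for the 37 members over 12 arrays paired by hour, with the medians of members (0.12) and of all genes tested (0.01) as dashed lines. 33 members lie above 0, and none passed the adjusted test.

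The 24 h curve did not differ between days for any member at an adjusted p under 0.05, and for 0% of all genes (smallest adjusted p 0.386, limma). At an unadjusted p under 0.05 there were 5 members, Ccl20, Cxcl3, Cxcl17, Cxcl1 and Ccr2, against 12.8% of all genes.

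Cxcl9 and Cxcl10, interferon-inducible ligands of Cxcr3, were highest together in 1 array, the second ZT14 collection (hour 38). Cxcl9 read 1535 there and 451 to 997 in the other 12 arrays, and Cxcl10 read 801 there and 275 to 499.7 elsewhere. Cxcl11, another such ligand and one of the dim members, was not highest there, at 174 in a range from 142 to 211. Ccl5, which attracts T cells and monocytes, had intensities of 398, 436 and 460.2 at ZT2, 445 and 658 at ZT6, 547 and 559 at ZT10, 502 and 1100.2 at ZT14, 501 and 468 at ZT18, and 404 and 574 at ZT22, with the second ZT14 array, at 1100.2, above all others. The first ZT14 array, a separate pool, read 564, 401 and 502, within the range of the others. These genes were chosen after their values were seen, and with 1 array no test applies. Of 12 NF-kB and interferon regulators, 2 were highest in the hour 38 array, and the other 10 were highest elsewhere. The 2 were Irf1 at 849.5 (next highest array 814) and Irf7 at 689 (next highest 680.3). That array was the highest for 2.43% of all genes tested, and no excess is read from so few regulators. T cell markers had a summed intensity of 5827 there, within the range of 5067 to 7319. Thy1, at 2517, was the largest part of that sum, and the share of T cells in this array was not tested. With that array left out, the day differences of Cxcl10 and Ccl5 fell to 0.19 and 0.22.

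**Figure D5:**
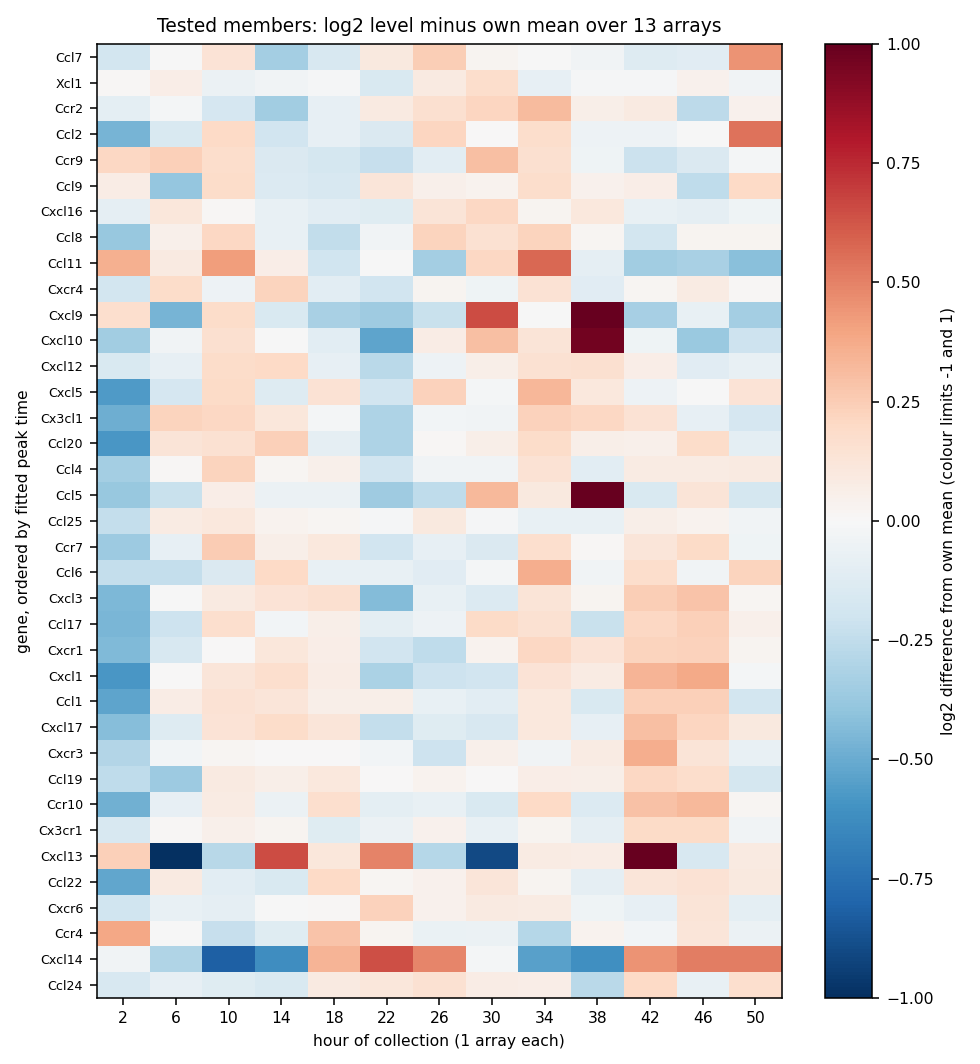
Log2 intensity of the 37 members in each array, as a difference from the gene's mean, with columns in order of hour. The first column (hour 2) is low for 21 members, and Ccl5, Cxcl9 and Cxcl10 are highest at hour 38.

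Other genes of the chemokine system were counted from 5 lists. Of 10 atypical receptors and related genes, 0 were called for rhythm and Cmklr1 and Ackr1 had the smallest adjusted p, 0.102 and 0.147 (limma). Of 22 genes of receptor signalling 0 were called, and of 12 of chemokine processing and presentation 0. Of 15 listed cytokines that induce chemokines, 8 were bright enough to test. Among these 8, Il33, an alarmin of barrier cells, was called with a difference of 0.84 ± 0.16 and a peak at 23.0 h (adjusted p 0.0308, limma). It read 1719 and 1098 at ZT22 and 1617, 1136 and 1322 at ZT2, so its replicates lay far apart. Its day by rhythm interaction had an unadjusted p of 0.00592 and an adjusted p of 0.386 (limma). Of 12 NF-kB and interferon regulators 0 were called. Median differences of these lists were 0.17, 0.15, 0.21, 0.20 and 0.11, against 0.19 over all genes.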

How the data were processed

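Affymetrix whole-transcript arrays were run on pooled skin RNA, 1 array a collection. The deposited values are linear probe set intensity values. The authors' processing notes, per the labels, name Affymetrix Expression Console 1.1.1 and PLIER 2.0. The normalization, annotation and build are not stated in the labels or files used. The platform annotation gave a single gene for 21789 of 35557 probe sets, several for 1621 and no entry for 12147. For genes with several, the brightest by mean was used. Values were transformed to log2(intensity + 16), the dimmest 25% of genes were left out, and 14954 genes were tested with limma 3.58.1 in R 4.3.3 (lmFit, eBayes, Benjamini-Hochberg, threshold 0.05) with 10, 7, 11, 5 and 6 residual degrees of freedom in the 5 tests. The code was tested on simulated data. Members, lists and tests were chosen with earlier results of these data known. Values by array are given for members with an adjusted p under 0.05 in any test, then those with the smallest p in the rhythm, dark and day tests and the 6 with the highest mean. Each array is a separate pool, so p-values cover the spread between pools. The number of arrays limits the precision. Day stands for the collection day alone.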

Additional observations from a re-analysis of the deposited data

Results flagged for a closer look

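Within the dark or the light arrays, 10 of 74 gene groups held an array far from the others, measured as its gap to the nearest array divided by the whole range. The cutoff is nominally passed by about 1 in 20 groups with no outlier. The share over all genes was not computed, so no excess among members is read from this count. Of the 10 flagged groups, 4 lay in the first ZT2 array (hour 2) and 4 in the second ZT14 array (hour 38). The hour 2 array was the lowest of 13 for 26.8% of all genes.

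At hour 2, Ccl20 read 222 against 316 to 387 in the other light arrays (ratio 0.631). Ccl22 read 201 against 273 to 322 (0.649). Ccl8 read 1609.5 against 2140 to 2456 (0.674). Ccr4 was high there instead, at 1731.5 against 1077 to 1317 (0.578). At hour 38, Ccl5 (0.652), Cxcl10 (0.651), Cxcl16 (0.798) and Cxcl9 (0.825) were high among the dark arrays. Cxcl16 read 1527 against 1301 to 1344, and values of the others are given above. Ccl9 was low at hour 6, at 1255 against 1684 to 1890 in other light arrays (0.717). Cxcl3 was low at hour 22, at 316 against 442 to 531 in other dark arrays (0.645).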

How the results depend on the processing

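Of the members called for rhythm, Cxcl14 was called in 24 of 26 alternatives, Ccr9 in 22 of 25 and Cxcl12 in 8 of 26. Genes called for rhythm numbered 318, but 165 with the dim end of the arrays as a covariate, 0 with the first day alone and 1 with the second day alone. Members called fell from 3 to 0 with either day alone. Leaving out each array in turn gave 128 to 422 genes and 1 to 3 members. For any difference among times, 44 genes became 1474 without the hour 2 and hour 46 arrays and 16 with day as a replicate block. With that block, members called stayed at 3 for rhythm, 1 for any difference among times and 0 for dark against light. Members called there rose from 1 to 5 without those 2 arrays. Leaving out arrays gave 18 to 133 genes and 0 to 1 members. For dark against light, 3 genes became 1 with a stricter filter on dim genes and 1 without the 2 arrays, and leaving out arrays gave 1 to 26. Neither day test called a gene under any alternative run. The fitted peak of Ccl9, with an uncalled swing of 0.07, moved to the opposite side of the day in 3 of 26 alternatives. Among them were the fit without the 2 arrays (swing 0.0403) and the first day alone (0.103). Its swing ran from 0.0235 to 0.234 when each array was left out, and the cause was not tested. The number of arrays and signal near the dim end limit precision.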

Other observations

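Dim members were also fitted with no filter. None of the 14 was called in any of the 5 tests, where 1, 1, 2, 2 and 5 had an unadjusted p under 0.05 (limma). The first 2 counts are for rhythm and times of day, at 7.14% of dim members each, against 16.9% and 8.83% of the 19938 genes in the same fits. The next 2, for dark against light and for days, are 14.3% each, against 7.80% and 5.30%. The last, for the day by rhythm interaction, is 35.7% against 11.4%. The smallest of these was Cxcl2, a neutrophil ligand, in the comparison of days, at an unadjusted p of 0.00275 and an adjusted p of 0.691 (limma). The alarmin Il1a read 1059 in the first ZT2 array and 269.8 to 573 in the other 12.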
